A study of Rattus norvegicus with 24 samples.

Results

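Acrylamide was compared with control in thyroid glands of male rats collected at night, which is 8 of the 24 arrays of the series. The arrays were chosen by their labels, 4 from control males and 4 from acrylamide males, all taken at 10 PM. Both groups were RccHan Wistar pups at postnatal day 35 ± 3. In the treated group the drinking water of the dams held acrylamide, dosed daily at 3 mg per kg of body weight and begun on gestation day 6, and their pups kept receiving it up to collection. Control animals drank tap water. The labels mention 5 pups of each sex per collection time without naming the animal behind each replicate, so the p-values measure only the spread between these samples, which may be technical. Levels are log2 intensities minus the 75th percentile of their array, so 0 is that percentile and a difference of 1 is a doubling.

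Follicular cells of the thyroid fold very large amounts of the hormone precursor thyroglobulin in the endoplasmic reticulum and iodinate it with hydrogen peroxide, so chaperones and antioxidant enzymes are prominent in the gland. The unfolded protein response raises those chaperones through the factors ATF6 and XBP1, which bind the ER stress response element. Acrylamide is a small electrophile that reacts with thiols; it is conjugated to glutathione by glutathione transferases or oxidised to glycidamide by CYP2E1. The factor NRF2 drives many enzymes of glutathione synthesis and electrophile removal through the antioxidant response element.

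Between 73.5% and 77.5% of the spots on each array were well above background and 0 were saturated. All 8 arrays shared 1 slide and 1 scan session. Controls lay in row 1 of the slide and acrylamide arrays in row 2, so treatment and array row cannot be told apart. Across probes well above background, the median SD was 0.24 among the 4 controls and 0.39 among the 4 acrylamide arrays.

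Acrylamide replicates 2 and 4 stood apart from the other 6 arrays. Over genes, after each gene's mean was removed, these replicates correlated at 0.60 with each other and between -0.72 and -0.28 with the rest, a description of arrays that share 1 slide. The skeletal muscle list gave a mean level of 6.52, 5.62, 5.78 and 6.83 in control replicates 1 to 4. In acrylamide replicates 1 to 4 it gave 6.32, 0.34, 5.50 and 3.93. The gland lies on muscle, and both low values belong to the replicates that stood apart. All 27 muscle genes measured had a negative difference, with a median of -2.05, and with acrylamide replicates 2 and 4 left out the median was -0.24. In females the same list had a median difference of -1.38.

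Acrylamide replicate 4 also had a low mean of the parathyroid list, at -2.51, against 2.61, 1.92 and 2.59 in acrylamide replicates 1 to 3. Pth, the parathyroid hormone, stood at 8.19, 7.96, 7.97 and 8.44 in the controls and at 8.31, 8.28, 8.21 and -0.23 in acrylamide replicates 1 to 4. Gcm2, the factor that specifies parathyroid cells, was at -0.62, -2.68, -0.65 and -8.35 in the acrylamide arrays and between -1.24 and -0.03 in controls. Casr, of the same list, did not share this drop. It was at 4.38, 4.84, 4.50 and 3.36 in the acrylamide arrays and between 3.65 and 4.51 in controls. The Y-linked gene Ube1y1 stood at -3.41, -3.80, -3.73 and -4.16 in controls and at -3.52, -3.13, -3.49 and -6.44 in acrylamide replicates 1 to 4. The library labelled acrylamide male replicate 4 was thus lower for this gene than the other 7 male arrays, and the female night arrays spanned -8.89 to -8.00. In bulk tissue, fewer cells of a type and less RNA per cell cannot be told apart. Values without acrylamide replicates 2 and 4 are given for many of the genes below; the part of muscle and parathyroid content in the results was not tested.

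**Figure D1:**
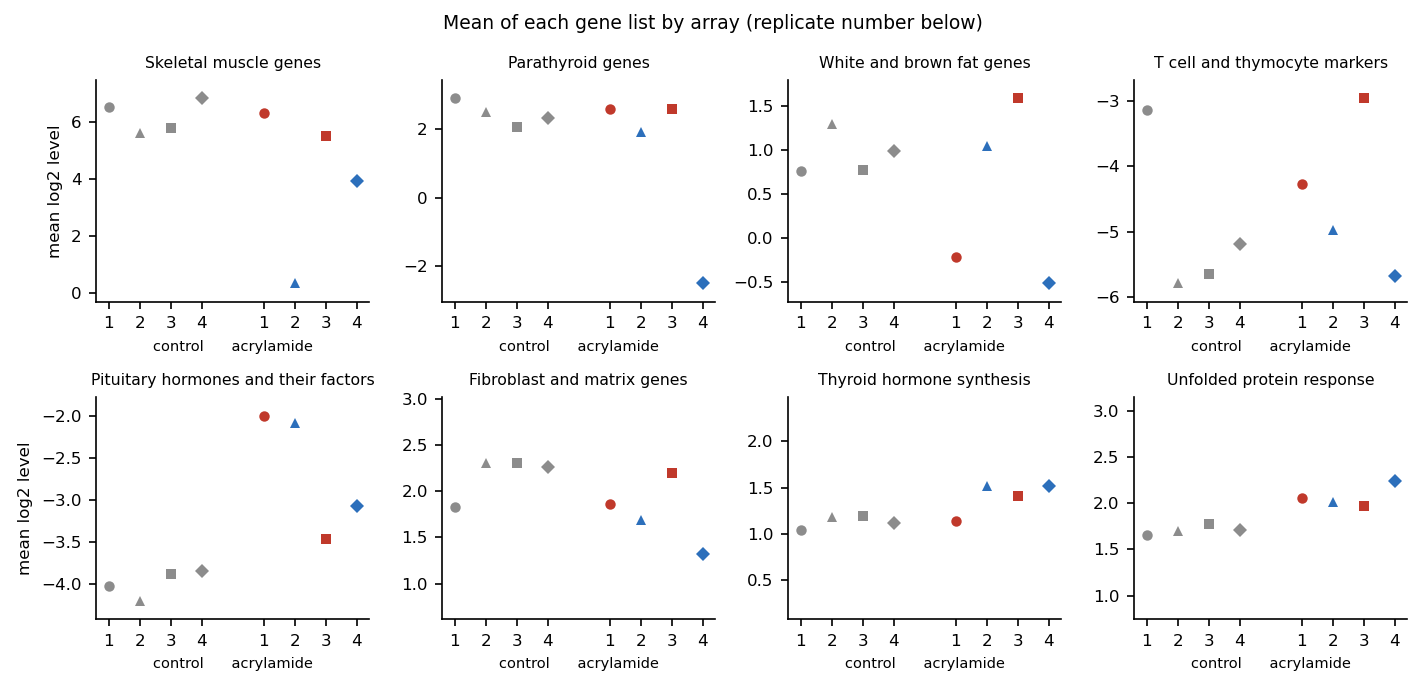
Mean log2 level of the members on the array of 8 gene lists (y axis) on each control and acrylamide array (x axis, replicate number). Muscle genes are low in acrylamide replicates 2 and 4, parathyroid genes in replicate 4, and pituitary and unfolded protein response genes are above all controls on every acrylamide array.

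No probe passed an adjusted p under 0.05. Of 30367 probes 0 were called (0%), and the smallest adjusted p from limma was 0.546; at an unadjusted p under 0.05 there were 1863 probes (6.13%). Taking each gene at its brightest probe, all 4 acrylamide arrays lay above all 4 controls for 633 of 26263 genes (2.41%) and below them for 363 (1.38%). At an unadjusted p under 0.05, 771 genes were higher (2.94%) and 843 lower (3.21%). The median difference over all genes was -0.04. Scaling to the spike-in RNA in place of the percentile moved that median to -0.36, and scaling to the array median moved it to 0.14. On the spike-in scale 7 genes lay above and 91 below without overlap. Thus 7.14% of such genes were higher, against 63.6% in the main scaling. The spike-in scale varied widely within groups: the spike-in mean minus the 75th percentile ran from 0.98 to 3.56 among the controls. Among the acrylamide arrays it ran from 1.94 to 2.70. Leaving out any 1 of the 8 arrays left 0 probes called. Directions below are therefore relative to the bulk of genes on the same array. Unless stated otherwise, no gene named below passed the threshold, and each adjusted p from limma was 0.546 or above.

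Genes of the unfolded protein response stood out by their arrays. Of 31 measured members, 25 had a positive difference, with a median of 0.41 beside -0.04 over all genes. For 10 of them (32.3%, against 2.41% of all genes) every acrylamide array lay above every control. For 1 (3.23%, against 1.38% of all genes) the reverse held. Lists and members were chosen with earlier results of these data known. The shares of this list and of those below are therefore descriptions, not tests. With acrylamide replicates 2 and 4 left out the median was 0.25, and on the spike-in scale it was 0.08.

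Hspa5, the chaperone BiP and master regulator of the response, stood at 5.47, 5.74, 5.63 and 5.32 in control replicates 1 to 4 and at 6.29, 6.73, 6.07 and 6.85 in acrylamide replicates 1 to 4. Every acrylamide array was above the controls, and replicates 2 and 4 were the highest. The difference was 0.94 (SE 0.22, 1.92-fold, adjusted p = 0.704 by limma), and it was 0.64 with replicates 1 and 3 alone. Hyou1, a large chaperone that exchanges nucleotide on BiP, stood at 3.28, 3.43, 3.02 and 2.90 in controls and 3.95, 4.46, 3.74 and 4.74 with acrylamide. It showed the same order of arrays, with a difference of 1.07 (SE 0.25), or 0.69 without replicates 2 and 4. Dnajb11 and Dnajc3, J-domain partners of BiP, differed by 0.74 (SE 0.23) and 0.71 (SE 0.18), both without overlap, or 0.45 and 0.50 without replicates 2 and 4.

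Derl3 and Sdf2l1 were the members with the smallest p-values. Derl3, part of the channel that returns misfolded proteins to the cytosol, stood at 1.95, 1.79, 2.18 and 1.89 in controls and at 2.91, 2.96, 2.88 and 3.33 with acrylamide. The 4 treated arrays lay close together and clear of the controls, replicates 1 and 3 included. The difference was 1.07 (SE 0.18, 2.09-fold, adjusted p = 0.704 by limma), and with the spread taken from all 16 night arrays the adjusted p from limma was 0.0378. Sdf2l1, which acts with the BiP complex, stood at 3.17, 3.27, 3.67 and 3.25 in controls and at 4.42, 4.59, 4.12 and 4.78 with acrylamide. Its difference was 1.14 (SE 0.20, 2.20-fold), also without overlap.

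Pdia4, a protein disulfide isomerase, stood at 0.25, 0.22, 0.15 and 0.33 in controls and at 1.19, 0.76, 1.10 and 1.79 with acrylamide, a difference of 0.97 (SE 0.23). Pdia6 differed by 0.60 (SE 0.16) with an SD of 0.06 among the 4 acrylamide arrays, and the isomerases P4hb and Pdia3 by 0.10 (SE 0.16) and 0.41 (SE 0.33) with overlap. Creld2, a secreted ER stress protein, stood at 2.11, 1.92, 2.13 and 1.66 in controls and at 3.15, 2.33, 3.08 and 3.09 with acrylamide. Here replicate 2 was the lowest treated array, and the difference of 0.96 (SE 0.23) was 1.16 without replicates 2 and 4. Manf, a secreted survival factor retained by BiP, differed by 0.60 (SE 0.20).

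Other members had small or negative differences. Ddit3, the death-associated factor CHOP, stood at 2.97, 2.98, 2.95 and 2.93 in controls and at 2.69, 2.89, 2.61 and 2.70 with acrylamide. All treated arrays were below the controls, by -0.23 on average (SE 0.15). Trib3, a CHOP target, differed by -0.74 (SE 0.41) with overlapping arrays. Eif2ak3, which encodes the kinase PERK, and its effector Atf4 differed by 0.49 (SE 0.29) and 0.21 (SE 0.19), and their targets Asns, Chac1 and Ppp1r15a by 0.056 (SE 0.20), -0.31 (SE 0.26) and -0.17 (SE 0.21), all with overlap. Xbp1, Hsp90b1 and the lectin chaperone Calr differed by 0.52 (SE 0.23), 0.82 (SE 0.29) and 0.28 (SE 0.23), each with overlap. Without replicates 2 and 4 these were 0.22, 0.43 and 0.62, and Calr was -0.046 on the spike-in scale.

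**Figure D2:**
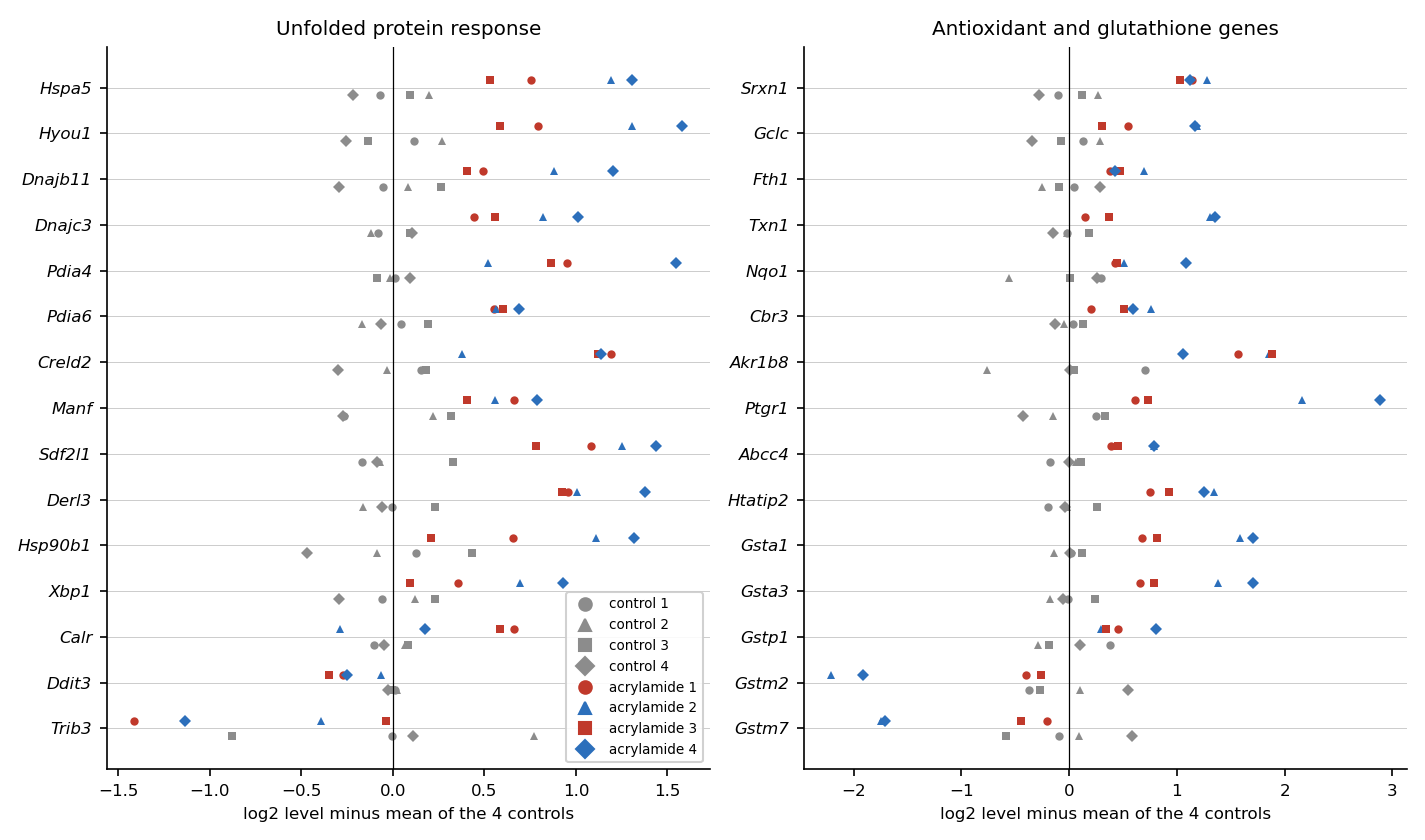
Log2 level of each array minus the mean of the 4 controls (x axis) for 15 genes of the unfolded protein response and 15 antioxidant and glutathione genes (y axis). Grey marks are controls, red marks acrylamide replicates 1 and 3, blue marks replicates 2 and 4; for Hspa5 to Derl3 and for Srxn1 the treated arrays lie to the right of every control.

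Promoters of this group are shown because 4 of the genes above carry the ER stress response element, searched on both strands as CCAAT, then 9 bases of any kind, then CCACG, in the 250 bases before their start (RefSeq, GRCr8). Capitals mark the match on either strand. Hspa5 is chr3:38452766-38453015 (plus strand), Derl3 is chr20:12766466-12766715 (minus), Creld2 is chr7:121789134-121789383 (plus) and Dnajc3 is chr15:102432417-102432666 (plus).
Hspa5: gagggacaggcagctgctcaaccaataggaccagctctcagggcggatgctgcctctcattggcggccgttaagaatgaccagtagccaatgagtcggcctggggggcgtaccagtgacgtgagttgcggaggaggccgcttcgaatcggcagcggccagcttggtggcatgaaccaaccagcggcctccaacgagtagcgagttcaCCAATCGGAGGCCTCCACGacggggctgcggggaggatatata
Derl3: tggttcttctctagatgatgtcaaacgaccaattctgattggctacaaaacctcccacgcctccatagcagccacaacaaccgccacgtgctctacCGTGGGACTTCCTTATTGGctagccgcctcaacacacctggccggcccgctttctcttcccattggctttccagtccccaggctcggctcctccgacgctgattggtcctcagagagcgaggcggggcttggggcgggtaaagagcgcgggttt
Creld2: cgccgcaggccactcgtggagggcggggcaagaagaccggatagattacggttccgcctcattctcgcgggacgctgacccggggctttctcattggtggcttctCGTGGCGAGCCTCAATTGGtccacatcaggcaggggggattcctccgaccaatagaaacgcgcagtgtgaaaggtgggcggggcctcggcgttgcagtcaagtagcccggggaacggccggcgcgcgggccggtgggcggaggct
Dnajc3: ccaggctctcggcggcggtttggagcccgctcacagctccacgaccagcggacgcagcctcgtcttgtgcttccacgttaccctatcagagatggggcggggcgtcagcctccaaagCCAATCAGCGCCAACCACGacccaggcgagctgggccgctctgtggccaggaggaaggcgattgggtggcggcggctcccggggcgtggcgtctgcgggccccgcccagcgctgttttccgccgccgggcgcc
The element was found in 22 of 33469 such windows (0.0657%). Counted by gene, with any listed start, it was found for 21 of 27457 (0.0765%). Of 25 list members with a promoter entry, 8 held it, 4 of the 8 that lay above the controls without overlap and 4 of the other 17 (Calr, Canx, Hsp90b1 and Xbp1). A match is a description of letters and no measure of binding. In the Derl3 window an E-box, CACGTG, lies just before the element.

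Antioxidant genes under NRF2 gave a smaller set with separated arrays. Of 31 measured, 22 were positive with a median of 0.23, and 8 (25.8%, against 2.41% of all genes) lay above all controls while 0 lay below. The median was 0.20 with acrylamide replicates 2 and 4 left out and -0.10 on the spike-in scale.

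Srxn1, the sulfiredoxin that restores oxidised peroxiredoxins, stood at 1.95, 2.33, 2.17 and 1.77 in controls and at 3.20, 3.33, 3.08 and 3.18 in acrylamide replicates 1 to 4. The treated arrays spread over less than the controls did, and replicates 1 and 3 were as clear of the controls as 2 and 4. The difference was 1.14 (SE 0.18, 2.21-fold, adjusted p = 0.546 by limma), and 1.08 without replicates 2 and 4. With the spread of the 16 night arrays its adjusted p from limma was 0.0346. Akr1b8, an aldo-keto reductase of reactive aldehydes, stood at 0.45, -1.01, -0.20 and -0.24 in controls and at 1.31, 1.61, 1.63 and 0.81 with acrylamide, a difference of 1.59 (SE 0.32). Akr1b8 has close paralogues on the array, and cross-hybridisation was not tested.

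Ptgr1, a reductase of reactive enals, stood at 2.26, 1.86, 2.34 and 1.58 in controls and at 2.62, 4.17, 2.75 and 4.89 with acrylamide. Its difference of 1.60 (SE 0.50) came mostly from replicates 2 and 4 and was 0.67 without them. Gclc, the catalytic subunit of the first step of glutathione synthesis, differed by 0.80 (SE 0.26), or 0.42 without them. Nqo1, a quinone reductase, differed by 0.62 (SE 0.25), Fth1, the ferritin heavy chain, by 0.49 (SE 0.18), and Abcc4 and Cbr3, an efflux pump and a carbonyl reductase, by 0.60 (SE 0.17) and 0.52 (SE 0.18). Hmox1 and Txnrd1, also NRF2 targets, gave -0.11 (SE 0.41) and -0.11 (SE 0.30), and Gclm was not well above background on any array.

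Glutathione transferases went in both directions. Gsta1 stood at 5.42, 5.26, 5.52 and 5.42 in controls and at 6.08, 6.99, 6.22 and 7.12 with acrylamide. Gsta3 stood at 4.28, 4.11, 4.53 and 4.23 in controls and at 4.95, 5.67, 5.08 and 5.99 with acrylamide. Both of these alpha-class genes were above the controls on every treated array and highest in replicates 2 and 4, with differences of 1.20 (SE 0.26) and 1.13 (SE 0.26), or 0.74 and 0.72 without those replicates. The other alpha-class genes overlapped between groups: Gsta4 and Gsta5 differed by 0.41 (SE 0.24) and 0.59 (SE 0.25). Gsta2 had the lowest difference of the list, -2.11 (SE 1.56), where acrylamide replicate 4 stood at -8.35 and replicates 1 to 3 between -1.11 and -0.55, and was -0.43 without replicates 2 and 4. Of the mu class, Gstm2 and Gstm7 differed by -1.19 (SE 0.47) and -1.03 (SE 0.41), and by -0.33 each without replicates 2 and 4. Gstp1, the pi-class enzyme, differed by 0.47 (SE 0.21). In the list of 23 transferases 12 were positive, with a median of 0.19. The alpha- and mu-class genes are close paralogues, so their probes may share signal.

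In the enzymes that handle acrylamide itself, Cyp2e1, which oxidises it to glycidamide, stood at -1.19, -0.45, -1.74 and -1.26 in controls. In acrylamide replicates 1 to 4 it stood at -2.66, -3.53, -2.13 and -3.98. Every treated array was below every control, most in replicates 2 and 4, and the difference was -1.92 (SE 0.43, adjusted p = 0.704 by limma) or -1.24 without them. The epoxide hydrolases Ephx1 and Ephx2 differed by -1.04 (SE 0.54) and -0.96 (SE 0.57) with all arrays, and by -0.04 and 0.18 without replicates 2 and 4. Ggt1 and Nat8, enzymes that turn glutathione conjugates into mercapturic acids, differed by 0.57 (SE 0.20) and 0.74 (SE 0.31) without overlap, or 0.54 and 0.38 without replicates 2 and 4. Of the 12 listed genes 5 were positive, 3 lay above all controls and 1 below, against 2.41% and 1.38% of all genes.

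The antioxidant response element, searched as TGACNNNGC on both strands, is common: 3373 of 33469 windows (10.1%) and 3027 of 27457 genes (11.0%) held it. It was found for 5 of 26 NRF2 list members and 5 of 19 transferases with a promoter entry, and for 0 of the 6 NRF2 list members that lay above the controls and have an entry. The windows of Gsta3, 1 of 2 listed starts at chr9:31154739-31154988 (plus), and of Htatip2, at chr1:108609945-108610194 (plus), are shown because both genes lay above all controls and match. Htatip2, a short-chain dehydrogenase, stood at 0.22, 0.40, 0.68 and 0.38 in controls and at 1.17, 1.76, 1.35 and 1.68 with acrylamide, a difference of 1.07 (SE 0.20). With the spread of the 16 night arrays its adjusted p from limma was 0.0346.
Gsta3: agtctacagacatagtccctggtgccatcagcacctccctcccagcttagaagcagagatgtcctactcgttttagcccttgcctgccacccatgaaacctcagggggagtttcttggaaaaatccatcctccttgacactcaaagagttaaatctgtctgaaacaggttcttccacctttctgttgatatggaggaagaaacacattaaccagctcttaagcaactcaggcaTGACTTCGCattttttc
Htatip2: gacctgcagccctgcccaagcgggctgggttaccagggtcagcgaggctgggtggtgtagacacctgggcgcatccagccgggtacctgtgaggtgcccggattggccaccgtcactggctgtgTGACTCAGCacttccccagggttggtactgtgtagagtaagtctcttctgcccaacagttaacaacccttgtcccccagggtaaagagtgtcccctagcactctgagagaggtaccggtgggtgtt

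Genes of thyroid hormone synthesis were mostly above zero, by small amounts. Of 23 members 17 were positive, the median was 0.35 and 4 (17.4%, against 2.41% of all genes) lay above all controls. With acrylamide replicates 2 and 4 left out the median was 0.15, and on the spike-in scale 0.03. Slc5a5, the sodium-iodide symporter, stood at 2.54, 2.54, 2.63 and 2.71 in controls and at 3.62, 3.07, 3.25 and 3.54 with acrylamide. All treated arrays were above the controls, and the difference was 0.77 (SE 0.18, 1.70-fold, adjusted p = 0.704 by limma), or 0.83 without replicates 2 and 4; its other probe gave -0.16 (SE 0.67). Duox2, which makes the hydrogen peroxide, and Cybrd1, a ferric reductase, differed by 0.56 (SE 0.19) and 0.81 (SE 0.26), also without overlap, or 0.28 and 0.40 without replicates 2 and 4.

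Tg itself, the thyroglobulin gene, stood at 8.63, 8.36, 7.95 and 9.27 in controls and at 8.88, 8.67, 8.92 and 8.37 with acrylamide. These arrays overlapped, and the difference was 0.16 (SE 0.29), with -0.17 on the spike-in scale and -0.042 without control replicate 3. Tshr, the thyrotropin receptor, differed by 0.23 (SE 0.21), with -0.78 (SE 0.35) at its other probe and -0.094 on the spike-in scale. Of the thyroid transcription factors, Hhex stood at 1.96, 2.48, 2.57 and 1.53 in controls and at 2.74, 4.36, 2.65 and 3.84 with acrylamide. Its difference of 1.26 (SE 0.42) was 0.56 without replicates 2 and 4. Pax8, at -0.03 (SE 0.20), and Foxe1, at 0.43 (SE 0.24), overlapped between groups, and Pax8 was 0.14 when scaled to the array median. Without replicates 2 and 4 Foxe1 was 0.085.

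Most clock genes lay below control. The cell clock couples the activators CLOCK and BMAL1 to the repressors PER, CRY and DEC through E-boxes, with output through DBP and its relatives. Bhlhe40, which encodes the repressor DEC1, stood at -1.06, -1.20, -1.04 and -1.80 in controls and at -2.59, -4.67, -2.71 and -3.63 in acrylamide replicates 1 to 4. Every treated array was below the controls, replicates 2 and 4 by most. The difference was -2.13 (SE 0.45, 4.37-fold lower, adjusted p = 0.704 by limma), or -1.38 without replicates 2 and 4. Scaled to the spike-ins it was -2.46 with an adjusted p from limma of 0.0336, a fit that gave every probe the same variance.

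Dbp, the output factor, stood at 4.66, 4.43, 4.96 and 4.20 in controls and at 3.86, 3.77, 4.14 and 4.01 with acrylamide. Its arrays did not overlap either, and the difference of -0.62 (SE 0.21) was -0.56 without replicates 2 and 4. Rora, an activator of Bmal1, differed by -0.71 (SE 0.27), or -0.35 without them. Nr1d1, the REV-ERB alpha repressor of Bmal1, differed by -1.47 (SE 0.50) and Per1 by -0.67 (SE 0.31), with overlap, and by -0.67 and -0.20 without replicates 2 and 4. Bmal1 differed by 0.52 (SE 0.27), its other probe by -0.04 (SE 0.42). Over the 3 clock lists 6 of 24 genes were positive, and 3 lay below all controls, as did 1.38% of all genes. The list medians were -0.30 for the activators and the REV-ERB/ROR loop, -0.37 for the repressors and -0.29 for the output factors, and 0.02, -0.12 and -0.16 without replicates 2 and 4.

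The Bhlhe40 window is shown because this gene had the largest negative difference of the clock genes and holds an E-box, CACGTG, in capitals, at chr4:143174200-143174449 (plus). The E-box was present in 1872 of 33469 windows (5.59%) and for 1698 of 27457 genes (6.18%). Among the clock genes with a promoter entry it was found for Bhlhe40, Bhlhe41, Ciart, Nr1d1 and Tef.
Bhlhe40: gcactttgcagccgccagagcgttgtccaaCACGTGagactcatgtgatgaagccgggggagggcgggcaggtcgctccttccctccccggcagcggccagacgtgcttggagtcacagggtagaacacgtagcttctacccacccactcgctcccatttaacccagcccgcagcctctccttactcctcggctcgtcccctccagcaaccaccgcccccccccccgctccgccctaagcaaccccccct

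The largest positive differences among the genes that met the naming rule were those of 4 pituitary hormone transcripts, Prl, Cga, Gh1 and Pomc. Prl, prolactin, stood at -7.58, -8.23, -6.23 and -7.54 in controls, where it was well above background on 1 array. In acrylamide replicates 1 to 4 it stood at 3.30, 3.90, -1.62 and -1.82 and was well above background on all. Replicates 1 and 2 were far higher than 3 and 4, yet each was above every control. The difference was 8.33 (SE 1.32, adjusted p = 0.555 by limma), and 8.23 without replicates 2 and 4; its size depends on the background of the controls.

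Gh1, growth hormone, stood at -4.62, -4.59, -2.78 and -4.75 in controls and at 2.55, 2.67, -1.98 and -0.54 with acrylamide, a difference of 4.86 (SE 1.03). Control replicate 3 was the highest control for Gh1, as it was for Prl, Pomc and Cga. Pomc, the precursor of corticotropin, stood at -0.58, -0.39, 0.53 and -0.29 in controls and at 3.42, 5.75, 1.49 and 4.73 with acrylamide, a difference of 4.03 (SE 0.80), or 2.63 without replicates 2 and 4. Cga, the alpha subunit shared by thyrotropin and the gonadotropins, differed by 5.02 (SE 0.95), a value that depends on the background since 1 of 4 controls was well above it, and Lhb, the luteinising hormone beta subunit, by 1.14 (SE 0.31). Both lay above all controls on every treated array.

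Tshb, the beta subunit of thyrotropin, was not well above background on any control and was so on 2 acrylamide arrays, replicates 1 and 2, at -3.41 and -2.18. Its mean was at least 3.69-fold higher with acrylamide (adjusted p = 0.704 by limma), while replicate 3, at -7.71, lay just above the highest control, at -7.84, and replicate 4, at -8.47, among the controls. Fshb overlapped, at 0.47 (SE 0.31). Transcription factors of pituitary cells did not follow the hormones: Pou1f1, which drives Prl and Gh1, gave -0.05 (SE 0.30), Tbx19, the corticotroph factor, 0.14 (SE 0.19), and Pitx1 0.01 (SE 0.27); Pou1f1 and Tbx19 each have another probe of opposite sign. Drd2, the dopamine receptor of prolactin cells, differed by 2.26 (SE 0.66), or 1.39 without replicates 2 and 4, and was well above background on 1 control. Over the 21 listed genes, 15 were positive with a median of 0.47 and 5 (23.8%, against 2.41% of all genes) lay above the controls. Whether pituitary RNA entered the samples was not tested. On the spike-in scale Prl, Gh1, Pomc, Cga and Tshb had adjusted p-values from limma between 2.87e-31 and 0.0241, again in the fit with 1 common variance.

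**Figure D3:**
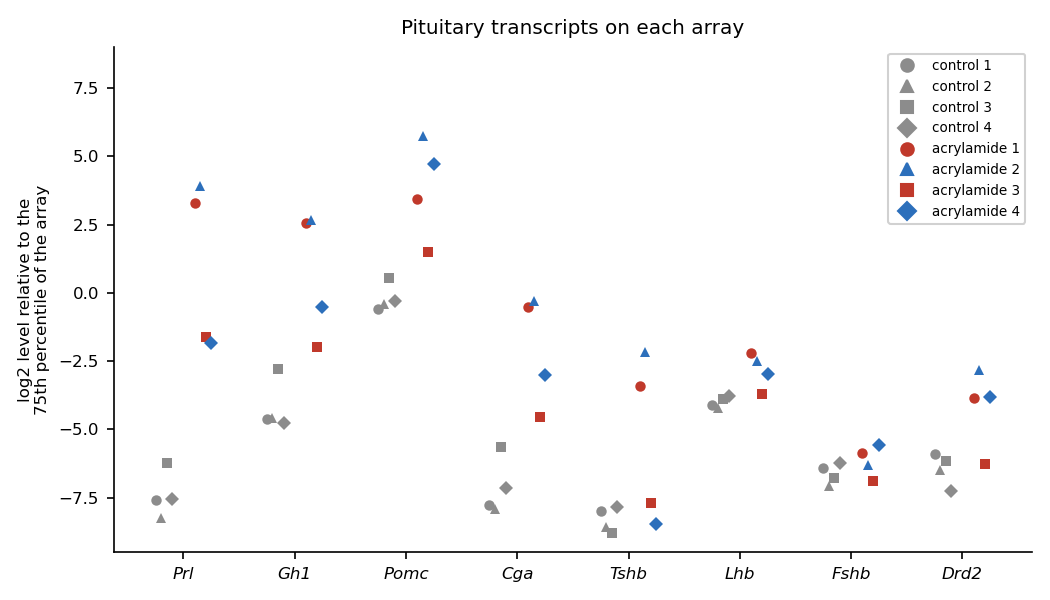
Log2 level relative to the 75th percentile (y axis) of 8 pituitary transcripts (x axis) on each array. Grey marks are controls and coloured marks acrylamide arrays; Prl, Gh1, Pomc, Cga and Lhb are above every control on all 4 treated arrays, and Tshb on replicates 1, 2 and 3, the last by little.

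Most inflammatory genes lay below control. Of 27 cytokine and adhesion genes 6 were positive, the median was -0.47, and 4 (14.8%, against 1.38% of all genes) lay below all controls. The median was -0.14 without acrylamide replicates 2 and 4 and -0.06 after normexp background correction. Selp, P-selectin of endothelium and platelets, stood at -2.92, -2.69, -2.58 and -3.13 in controls and at -3.67, -4.67, -3.81 and -4.27 with acrylamide. The groups did not overlap, and the difference was -1.27 (SE 0.26) or -0.90 without replicates 2 and 4. Il1b, interleukin 1 beta, stood at -3.68, -4.01, -3.50 and -3.96 in controls and at -4.48, -4.45, -4.90 and -4.93 with acrylamide. Its difference, -0.90 (SE 0.20), was -0.90 without replicates 2 and 4 too. Ccl2, a monocyte attractant, differed by -1.03 (SE 0.40), and its treated arrays spread by an SD of 0.07 against 0.90 in controls.

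Among macrophage markers 2 of 20 were positive, with a median of -0.46, and Cd163, a scavenger receptor, differed by -0.48 (SE 0.18) without overlap. Complement genes were positive for 6 of 20, with a median of -0.33. Cd55, a complement inhibitor, stood at -3.42, -3.56, -3.95 and -3.87 in controls and at -4.10, -5.20, -4.81 and -4.95 with acrylamide, a difference of -1.07 (SE 0.26). The median of these lists was -0.25 and -0.26 without replicates 2 and 4. Cd209g, a C-type lectin, differed by -1.97 (SE 0.38), from -0.80 ± 0.59 (SD, n = 4) to -2.78 ± 0.62 (SD, n = 4).

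Cytosolic heat shock genes were divided. Hspa1b, an inducible HSP70, stood at -0.37, -0.35, -0.15 and -0.43 in controls and at -1.25, -0.99, -1.48 and -1.55 with acrylamide. All treated arrays were lower, and the difference of -0.99 (SE 0.18) was -1.04 without replicates 2 and 4; the near-identical Hspa1a may share its probe. Bag3, a co-chaperone, differed by -0.82 (SE 0.23), or -0.51 without replicates 2 and 4. Hspb8 had the lowest difference of the list, -1.81, or -0.35 without replicates 2 and 4. Hspa1l differed by -0.47 in replicates 1 and 3 and by -2.92 in replicates 2 and 4. Cryab differed by -1.25 (SE 0.45) with overlap, or -0.48 without replicates 2 and 4. Hsph1 and Hsp90aa1 differed by 0.50 (SE 0.21) and 0.69 (SE 0.30), or 0.46 and 0.18 without replicates 2 and 4, and of 22 listed genes 11 were positive with a median of 0.01.

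**Figure D4:**
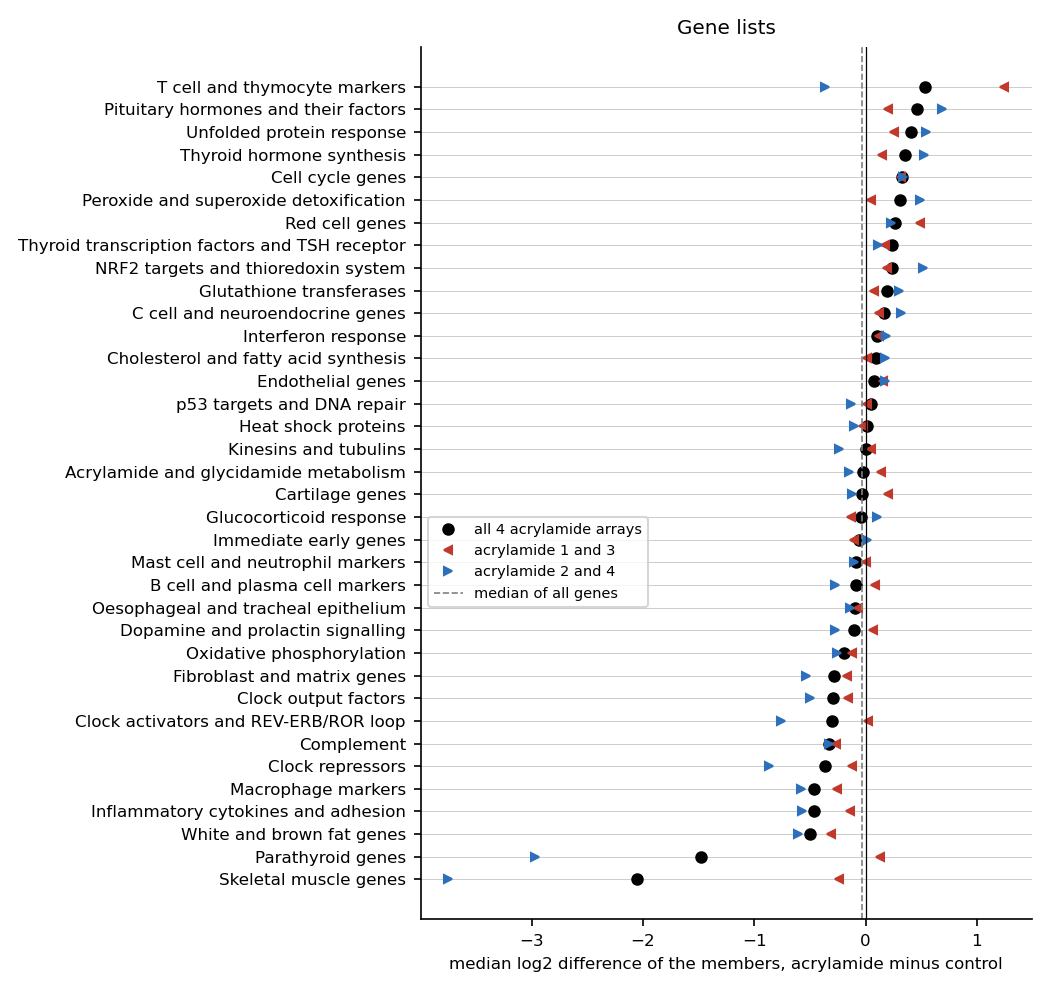
Median log2 difference of the members, acrylamide minus control (x axis), for the 36 lists with at least 3 genes on the array. Black circles use all 4 acrylamide arrays, red marks replicates 1 and 3, blue marks replicates 2 and 4; red and blue lie far apart for muscle, parathyroid and T cell genes and close together for cell cycle and complement genes.

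Outside the lists, the smallest p-value of a gene well above background was that of Ces1e, a carboxylesterase. It stood at -3.38, -3.74, -3.52 and -3.55 in controls and at -1.99, -1.28, -2.00 and -0.94 with acrylamide. The controls lay within a narrow range and every treated array was clear of it. The rule that named genes by smallest p or largest difference required groups without overlap. Separation of the genes named by it was therefore set by the choice. The difference was 1.99 (SE 0.27, 3.98-fold, adjusted p = 0.546 by limma), or 1.55 without replicates 2 and 4, and with the spread of the 16 night arrays the adjusted p from limma was 0.0294. Carboxylesterase genes are close paralogues, and which of them the probe reads was not tested. The fifth probe that passed on that spread, Scn10a, at 1.44 (SE 0.22), was too dim for the naming rule and is named after its value was seen; it was also the 1 probe that passed on the spread of all 24 arrays (adjusted p = 0.0372 by limma).

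Angptl4, Cyp4a2 and Pgf were also higher with acrylamide. Angptl4 and Pgf are list members, with the highest differences of the glucocorticoid response and endothelial lists, whose medians were -0.04 and 0.08. Angptl4, an inhibitor of lipoprotein lipase, stood at 0.43, 1.42, 1.06 and 1.05 in controls and at 1.71, 2.44, 2.35 and 2.80 with acrylamide, a difference of 1.33 (SE 0.29). Cyp4a2, a fatty acid hydroxylase, differed by 1.21 (SE 0.23) and was well above background on 2 controls. Pgf, placental growth factor, stood at 3.28, 3.27, 2.96 and 2.12 in controls and at 4.49, 4.47, 4.04 and 5.08 with acrylamide, a difference of 1.61 (SE 0.32). All 3 genes lay above every control, which the naming rule required of Cyp4a2 and Pgf. Try10, a trypsin-like protease, differed by 0.96 (SE 0.18), and Klrc2, a receptor of natural killer cells that no control measured, was at least 1.94-fold higher (adjusted p = 0.704 by limma).

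On the negative side, Trim16, a ubiquitin ligase, stood at 0.00, -0.35, -0.29 and 0.25 in controls and at -1.24, -2.14, -1.54 and -1.92 with acrylamide, a difference of -1.61 (SE 0.24, adjusted p = 0.546 by limma). Pou2af1, a B cell coactivator, stood at -0.60, -1.20, -0.87 and -1.09 in controls and at -2.66, -2.17, -2.26 and -2.18 with acrylamide. Its difference of -1.38 (SE 0.20) was -1.52 without replicates 2 and 4. Scn1a, a sodium channel that no acrylamide array measured, was at least 2.58-fold lower. Cdh23, Pla2g12a, Nppc and Ell3 differed by -1.02 (SE 0.23), -1.12 (SE 0.26), -1.27 (SE 0.30) and -0.75 (SE 0.18). The largest non-overlapping negative differences included Abra, an actin-binding activator of muscle transcription, at -2.71 (SE 0.98), and Art5, Art1, Tceal7 and Asb14, between -2.36 and -1.97. Without replicates 2 and 4 these genes differed by -1.19 (Abra), -0.97 (Art5), -0.85 (Art1), -0.75 (Tceal7) and -0.65 (Asb14), and 2 of the 4 probes of Asb14 had the opposite sign. Abra stood at -3.67 in acrylamide replicate 2 and at 1.06 to 1.23 in replicates 1 and 3. Acox2 and C1qtnf3 differed by -2.15 (SE 0.62) and -2.00 (SE 0.55), or -0.91 and -1.04 without replicates 2 and 4, and Acox2 was well above background on 2 treated arrays.

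Cell cycle genes were positive for 36 of 47, with a median of 0.33 and 4 (8.51%, against 2.41% of all genes) above all controls. The median was 0.32 without acrylamide replicates 2 and 4 and 0.00 on the spike-in scale. Tk1, the thymidine kinase of S phase, stood at -0.62, -0.91, 0.00 and -0.55 in controls and at 0.03, 0.18, 0.28 and 0.32 with acrylamide, a difference of 0.72 (SE 0.22). Cdc6, which licenses replication origins, and Ttk, a spindle checkpoint kinase, differed by 0.81 (SE 0.24) and 0.70 (SE 0.22), again without overlap.

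The female arrays of the same hour share no array with the males; whether male and female pups shared dams is not given in the labels. Of the 633 genes above all controls in males, 532 (84.0%) had a positive difference in females, where 47.6% of all genes did. In females 788 genes (3%) lay above all controls; 112 genes were on both lists, 17.7% of the male and 14.2% of the female list. Of the 363 genes below all controls in males, 277 (76.3%) were negative in females; 18 lay below in both, 4.96% of the male list and 4.76% of the 378 female genes (1.44%). Array row follows treatment in the same way on the female slide, so row and treatment cannot be told apart in either sex.

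Ces1e, Srxn1 and Derl3 were separated in females too. For Ces1e the female controls stood at -3.74, -2.99, -2.71 and -3.36 and the acrylamide females at -2.09, -2.27, -2.18 and -1.91. Srxn1 stood at 1.86, 2.10, 1.38 and 2.03 in female controls and at 2.58, 2.50, 2.54 and 2.55 with acrylamide. Derl3 stood at 1.57, 1.27, 1.82 and 1.68 in female controls and at 2.43, 2.01, 2.25 and 2.13 with acrylamide. The female differences of these genes were 1.09, 0.70 and 0.62, and the male minus female difference was 0.91 (SE 0.35), 0.44 (SE 0.23) and 0.44 (SE 0.22). The unfolded protein response had a female median of 0.22 with 24 of 31 positive and 7 above all controls, and the NRF2 list 0.18 with 24 of 31 positive and 3 above, where 3% of all genes lay above in females. For thyroid hormone synthesis the female median was 0.06, with 16 of 23 positive and 2 above. Slc5a5 differed by -0.09 in females, a male minus female difference of 0.86 (SE 0.45).

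Prolactin stood at -7.15, -7.92, -6.79 and -4.20 in female controls and at -8.25, -0.32, -1.32 and -1.76 in acrylamide females, so that 3 of the 4 treated arrays were above every control and acrylamide female replicate 1 was below them. The female difference of Prl was 3.60, and males minus females was 4.73 (SE 2.30). Pomc showed the same arrays in females, at -0.68, 4.81, 2.74 and 2.13 with acrylamide against -0.64 to -0.18 in controls.

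No probe passed in the test of the difference between the sexes: 0 of 30367 (0%), smallest adjusted p from limma 0.94, with 833 (2.74%) at an unadjusted p under 0.05. Slide follows sex in this test. The smallest p-value among named genes was that of Clec1b, a receptor of platelets and megakaryocytes. In males it stood at -6.85, -6.62, -6.23 and -7.58 in controls and at -4.70, -4.43, -4.72 and -5.67 with acrylamide; in females it stood at -5.98, -6.02, -5.13 and -5.01 and at -6.01, -6.55, -5.80 and -6.40. The male difference was 1.94 (SE 0.35) and the female one -0.65, so that males minus females was 2.59 (SE 0.48, adjusted p = 0.94 by limma). Clec1b was well above background on 1 of 4 male controls, so the size of these differences depends on the background. Gp1bb, also of platelets, differed by 0.59 in males and -0.21 in females, and Pianp, C5 and Depp1 had male minus female differences of 1.06, 1.61 and 1.35.

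F5, coagulation factor V, went the other way. It stood at -2.60, -1.88, -2.98 and -2.29 in male controls and at -4.35, -3.53, -4.01 and -2.60 in male acrylamide arrays, a difference of -1.19 (SE 0.39) with overlapping arrays, against 1.01 in females. Rgs17, Ccdc96, LOC689316 and Iqch had male minus female differences of -1.12, -0.95, -0.99 and -1.74. Among the genes described above, Bhlhe40 differed by -0.35 in females, a male minus female difference of -1.78 (SE 0.53), Hspa1b by -0.20 (-0.79, SE 0.24), Il1b by 0.01 (-0.91, SE 0.34) and Sik1, a salt-inducible kinase at 0.97 (SE 0.26) in males, by -0.26 (1.24, SE 0.38). None of these passed the threshold.

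**Figure D5:**
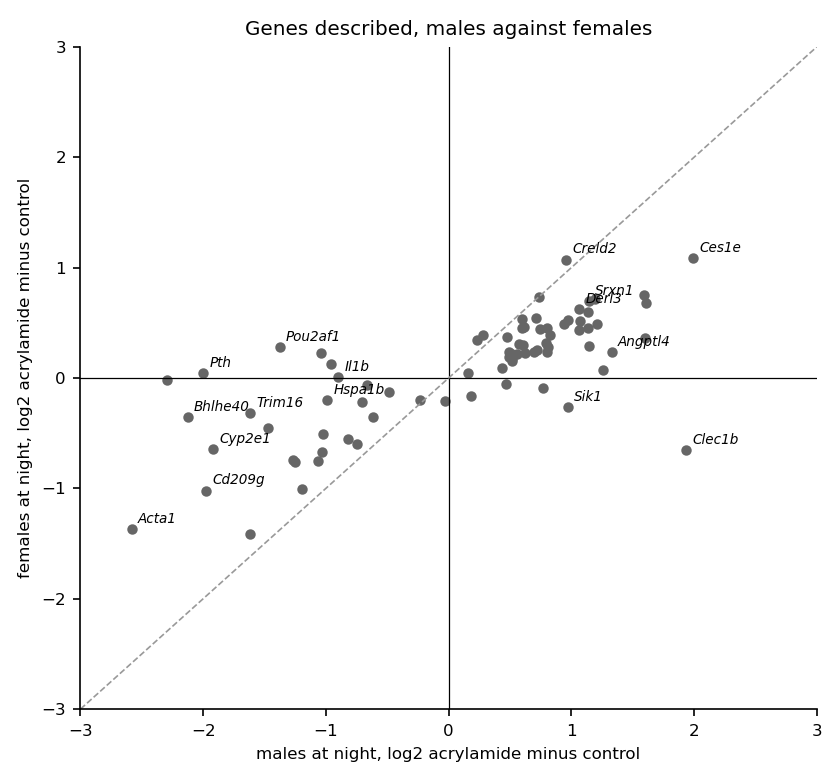
Log2 difference, acrylamide minus control, in males (x axis) and females (y axis) at night for 78 of the genes described, Prl, Cga, Gh1, Pomc, Tshb, Drd2 and Ube1y1 left out; the dashed line marks equal differences. Ces1e, Srxn1 and Derl3 are positive in both sexes, and Clec1b and Sik1 are positive in males and negative in females.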

How the data were processed

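The arrays were 1-colour Agilent arrays of rat genes with probe coordinates on rn4, read with Feature Extraction 10.1.1.1, per the file headers. The deposited intensity is the processed signal, background-corrected by that software, per the file headers. The authors' deposited value table is in log2 and has a median of 0 on each array; it served as an alternative. Here each array's log2 signal was centred on its 75th percentile, replicate spots were averaged, and 30367 probes were tested with limma 3.58.1 in R 4.3.3 (2-sided, Benjamini-Hochberg adjustment over all probes, spread of the 8 arrays alone). Control spots and flagged spots (0.47% to 1.29% per array) were left out. The number of arrays limits the precision. Names came from RefSeq (GRCr8) by accession for 18005 probes, by symbol for 2668 and by synonym for 547; 9147 kept the array's name. A gene is its brightest probe. Promoters are the 250 bases before RefSeq starts.

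Named genes were the 12 higher and 12 lower with the smallest p among named probes well above background on at least 3 of 4 arrays of a group and without overlap between groups, the 8 each with the largest difference, up to 5 per list plus 11 set genes, and 5 each from the test between sexes. Sik1 and Cd209g are named outside this rule, as is Scn10a, and some lists have more than 5 members named. Members and lists were chosen with earlier results of these data known. The fit was tested on simulated data. Alternatives were other scalings, background correction, filters, spreads, array weights, the replicate block and leaving out each array.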

Additional observations from a re-analysis of the deposited data

Results flagged for a closer look

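Of 244 groups of 4 arrays examined over the named genes and list means, 11 had an array whose gap to the nearest of the others passed Dixon's critical value. Chance alone gives about 1 in 20. Among controls, Ephx2 was low in replicate 3 at -0.721 against -0.592 to -0.569 in the others. Gh1 was high in control replicate 3 at -2.778 against -4.748 to -4.593. The means of the mast cell and neutrophil list, at -3.173, and of the fibroblast list, at 1.833, were low in control replicate 1. The cartilage list mean was high in control replicate 4, at -4.363.

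Among acrylamide arrays, Creld2 was low in replicate 2, at 2.33. In replicate 4, Nqo1 was high at 1.015 and Pax8 at 3.64. The same array was low for Pth at -0.23, for Ube1y1 at -6.442 and for the mean of the parathyroid list at -2.505, where the other 3 arrays spanned 1.917 to 2.608.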

How the results depend on the processing

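Scaling to the spike-ins moved most: 8 probes were called higher and 147 lower, with 7 genes above and 91 below without overlap. Many of the probes called lower read skeletal muscle genes, such as Myh2, Myh7, Actn2 and Acta1, in the fit with 1 common variance. Abra, Art5, Tceal7, Gcm2, Art1, Acox2 and Gsta2 were called lower too, with adjusted p-values from limma between 0.00229 and 0.0355. Calr (-0.046), Tg (-0.17), Tshr (-0.094) and Casr (-0.15) changed sign. Normexp left 195 genes below. The spread of the 16 night arrays gave 5 calls and that of all 24 arrays 1, all higher. Pax8 was 0.14 when scaled to the median and 0.14 in the deposited table. Leaving out 1 array at a time, calls stayed at 0, and genes without overlap numbered 733 to 1474 above and 489 to 1130 below, since fewer arrays overlap less often. The counts moved by over 1.5 times without control replicate 2 (983 and 856), control 3 (1229 and 823), control 4 (1247 and 618), acrylamide 1 (1474 and 1130) or acrylamide 3 (1201 and 1103). Signs changed for Tg (-0.042 to 0.40), Pax8 (-0.19 to 0.036), Casr (-0.012 to 0.48), Pth (-2.72 to 0.13) and Ube1y1 (-0.71 to 0.40). Unadjusted p under 0.05 was reached by 3889 probes without acrylamide 3, 3652 without acrylamide 1, 902 without acrylamide 4, 1079 without acrylamide 2 and 999 without control 1.

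With acrylamide replicates 2 and 4 left out together, a choice made after seeing the data, 1780 genes lay above and 1185 below, and Ephx2 (0.18), Pth (0.12), Gcm2 (0.14), Acta1 (0.055) and Ube1y1 (0.27) were positive. With the replicate number as a block 0 probes were called (smallest adjusted p from limma 0.773, 1747 unadjusted), and in the test between sexes 0 (890 unadjusted). Same-numbered arrays correlated at 0.233, 0.401, -0.186 and -0.223 over genes. Control replicates 1 to 4 correlated best with acrylamide replicates 1, 2, 2 and 3. Whether the numbers pair the samples cannot be told from these few values, and the labels do not say. For the changes with scaling and spread the cause was not tested.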

Other observations

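Several lists with no place above had values of their own. Red cell genes were positive for 10 of 11, with a median of 0.26, and 3 lay above all controls (2.41% of all genes did), among them Slc4a1, the band 3 anion exchanger, at 0.89 (SE 0.27), and Tfrc, the transferrin receptor, at 0.63 (SE 0.20). The red cell median was -0.07 on the spike-in scale and -0.48 in females. T cell genes were positive for 12 of 17, with a median of 0.53. It was 1.25 in acrylamide replicates 1 and 3 and -0.36 in replicates 2 and 4. The mean of the T cell list was highest in acrylamide replicate 3 (-2.97) and control replicate 1 (-3.15). Leaving out 1 array at a time gave T cell medians from -0.14 to 1.21. Oxidative phosphorylation genes were positive for 5 of 41, with a median of -0.19, and Ndufa9, Cycs and Ndufv2 lay below all controls (1.38% of all genes did) at -0.59, -0.61 and -0.27. Fibroblast and matrix genes were positive for 1 of 24, with a median of -0.29.

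Atf3, a stress-induced early gene, stood at -0.81, -1.41, 0.52 and -0.99 in controls and at -1.58, -2.33, -2.15 and -2.97 with acrylamide, a difference of -1.59 (SE 0.44) without overlap. Myc, also of the early response, differed by 0.89 (SE 0.32), or 0.31 without acrylamide replicates 2 and 4. Of the p53 and DNA repair list, Ccng1 had the lowest difference, -1.82, or -2.28 without acrylamide replicates 2 and 4. Sesn1, a p53 target, differed by -1.30 (SE 0.45), or -0.45 without them. In that list 15 of 29 genes were positive, with a median of 0.05. Of 16 peroxide and superoxide enzymes 11 were positive, with a median of 0.31 that was -0.02 on the spike-in scale. Gpx2 lay above all controls at 0.78 (SE 0.21) and Gpx1 below at -0.29.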
